A study of Mus musculus with 9 samples.

Results

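Arginine is a branch point of metabolism, and 10 genes that sit around it are described here in primary myoblasts, the muscle precursor cells that divide, differentiate and fuse into fibres. They are the arginase genes Arg1 and Arg2, the inducible nitric oxide synthase gene Nos2, the citrulline recycling genes Ass1 and Asl, the arginine transporter gene Slc7a2, and the polyamine genes Odc1, Srm, Oaz1 and Sat1. They are 10 of the 53715 genes of the deposited table and were picked by symbol. They were selected on their values in the comparison of the glycine levels, so that comparison is described for them without a test. The cells came from mice of the strain C57BL/10ScSn-Dmdmdx/J, known as mdx, which lacks full-length dystrophin through a mutation in Dmd, and were at passage 1. Every library carries that mutation, so there is no group with intact dystrophin. The cells received glycine at 0.2 mM (n = 3 libraries) or at 0.8 mM (n = 6 libraries), and the comparison asks which transcripts differ between the levels. The sources used here give no age, sex, time under glycine or number of animals.

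Arginine enters cells through cationic amino acid transporters such as the product of Slc7a2. Arginase splits it into urea and ornithine, in the cytosol for Arg1 and in mitochondria for Arg2, while nitric oxide synthase turns it into nitric oxide and citrulline, which Ass1 and Asl build back into arginine. Ornithine feeds the polyamines: Odc1 makes putrescine, Srm makes spermidine from it, Oaz1 holds Odc1 in check and Sat1 acetylates spermidine and spermine for breakdown or export. In dystrophic muscle Nos2 and Arg1 are best known from macrophages, where they compete for the same arginine. Polyamines are needed for growth, and spermidine is the source of hypusine, a modified residue of the translation factor Eif5a.

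Abundance was measured as TPM, a transcript level corrected for gene length and set to the same total in every library, so levels can be compared between genes. TPM keeps no read number, so the depth behind each value is unknown. Between 8979 and 9457 genes per library reached 1 TPM. Nothing in the labels tells whether the libraries of a group are separate cultures, animals or preparations, so a p-value covers the spread between samples that may be technical repeats. Each of the 2 numbered library series holds 1 glycine level, and a difference between the series in preparation or sequencing cannot be told apart from glycine. A difference is that of log2(TPM + 1) between 0.8 and 0.2 mM, positive where 0.8 mM was higher, with the standard error (SE) of a limma fit over all 10049 genes that reached 1 TPM in at least 3 libraries. That scale understates the change of genes with low TPM. A gene outside the 10 is said to have risen or fallen where its limma adjusted p was under 0.05.

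The members lie on 8 chromosomes. Promoter sequences from RefSeq (GRCm38.p6, 250 bases before to 50 after the annotated start site) matched 4 of the 10 members: Ass1, Odc1, Oaz1 and Sat1. Those of Ass1, Oaz1 and Odc1 are printed because Ass1 and Oaz1 were apart between the glycine levels and Odc1 is the target of Oaz1. They were searched on both strands for the TATA box TATAAA, the GC box GGGCGG, the CCAAT box CCAAT, the E-box CACGTG, the cAMP element TGACGTCA and the amino acid response type element TGATGNAA, none of which overlapped another here. Capitals mark the matches.
Ass1 promoter, chr2:31470020-31470319, plus strand: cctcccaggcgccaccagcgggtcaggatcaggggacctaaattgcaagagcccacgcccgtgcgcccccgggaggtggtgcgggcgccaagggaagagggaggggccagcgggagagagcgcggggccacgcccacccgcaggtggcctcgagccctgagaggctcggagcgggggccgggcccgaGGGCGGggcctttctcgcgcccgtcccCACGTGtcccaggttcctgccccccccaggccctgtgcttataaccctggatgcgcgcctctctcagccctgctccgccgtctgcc
Oaz1 promoter, chr10:80826406-80826705, plus strand: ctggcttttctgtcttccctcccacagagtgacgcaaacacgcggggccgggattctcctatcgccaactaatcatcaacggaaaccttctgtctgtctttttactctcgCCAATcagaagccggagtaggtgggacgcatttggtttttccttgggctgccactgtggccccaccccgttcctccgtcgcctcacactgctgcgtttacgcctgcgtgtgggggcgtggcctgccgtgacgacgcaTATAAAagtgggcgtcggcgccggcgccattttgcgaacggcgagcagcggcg
Odc1 promoter, chr12:17544623-17544922, plus strand: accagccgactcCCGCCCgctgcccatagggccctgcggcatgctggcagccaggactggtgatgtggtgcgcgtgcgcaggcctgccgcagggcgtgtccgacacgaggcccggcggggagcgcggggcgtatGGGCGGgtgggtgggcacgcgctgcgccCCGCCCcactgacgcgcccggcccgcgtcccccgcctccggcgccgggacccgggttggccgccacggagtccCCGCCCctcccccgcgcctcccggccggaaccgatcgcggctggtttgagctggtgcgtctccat
Ass1 held 1 GC box at position -63 and 1 E-box at -36, counted with the RefSeq start site as 0. The gene starts in GENCODE, 31470207 for Ass1 and 17544794 for Odc1, lie within these windows, upstream of the RefSeq start sites. Positions of these motifs thus depend on the annotation. Oaz1 held 1 CCAAT box at -140 and 1 TATAAA at -3, and no GC box. Odc1 held 4 GC boxes, at -238, -116, -88 and -15, and Sat1 held 2. G and C made up 74.0% of the bases for Ass1, 60.0% for Oaz1, 78.0% for Odc1 and 60.3% for Sat1. No motif was shared by all 4 windows. Among 32851 promoters of the same length, GC boxes were in 35.7%, CCAAT in 37.4%, TATAAA in 13.6% and the E-box in 7.15%. TGACGTCA was in 1.79% of them and TGATGNAA in 3.97%, and neither was in the 4 windows. These matches describe letters only.

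Oaz1 carries a further sequence that sets it apart, the site where ribosomes shift forward by 1 base. Antizyme is read from 2 overlapping frames, and polyamines favour the shift, so the mRNA level alone does not give the amount of protein. In the mouse transcript (GENCODE M21, GRCm38) the first frame ran for 68 codons to a TGA stop at chromosome 10, 80828295 to 80828297, shown in capitals with the bases around it.
Oaz1 frameshift site, chr10:80828265-80828327, plus strand: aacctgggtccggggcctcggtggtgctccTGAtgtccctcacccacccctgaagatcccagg
The annotated coding sequence leaves out base 80828295 and then reads on for 227 codons in all. RNA sequencing of this kind counts the transcript whichever frame is read.

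All 10 members passed the filter on low values. The levels of 4 of them, Arg1, Nos2, Ass1 and Oaz1, were higher in every 0.8 mM library than in every 0.2 mM library, and no member was lower in every one. Among all genes tested the groups did not overlap for 28.2%, with 0.8 mM higher for 17.6% and lower for 10.6%. In the fit 26.6% of all genes tested passed the threshold, 16.7% upward and 9.81% downward, and no call is given for the members. Since the comparison chose the members, nothing is read from these counts. The median difference was 0.19 over the members and 0.06 over all genes tested. The split of all genes, 1683 up and 986 down, became 1413 and 1285 with median-ratio scaling and 1364 and 1340 with quantile normalization. Plotted by library, the members fall into genes whose groups are far apart and genes whose groups interleave.

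**Figure D1:**
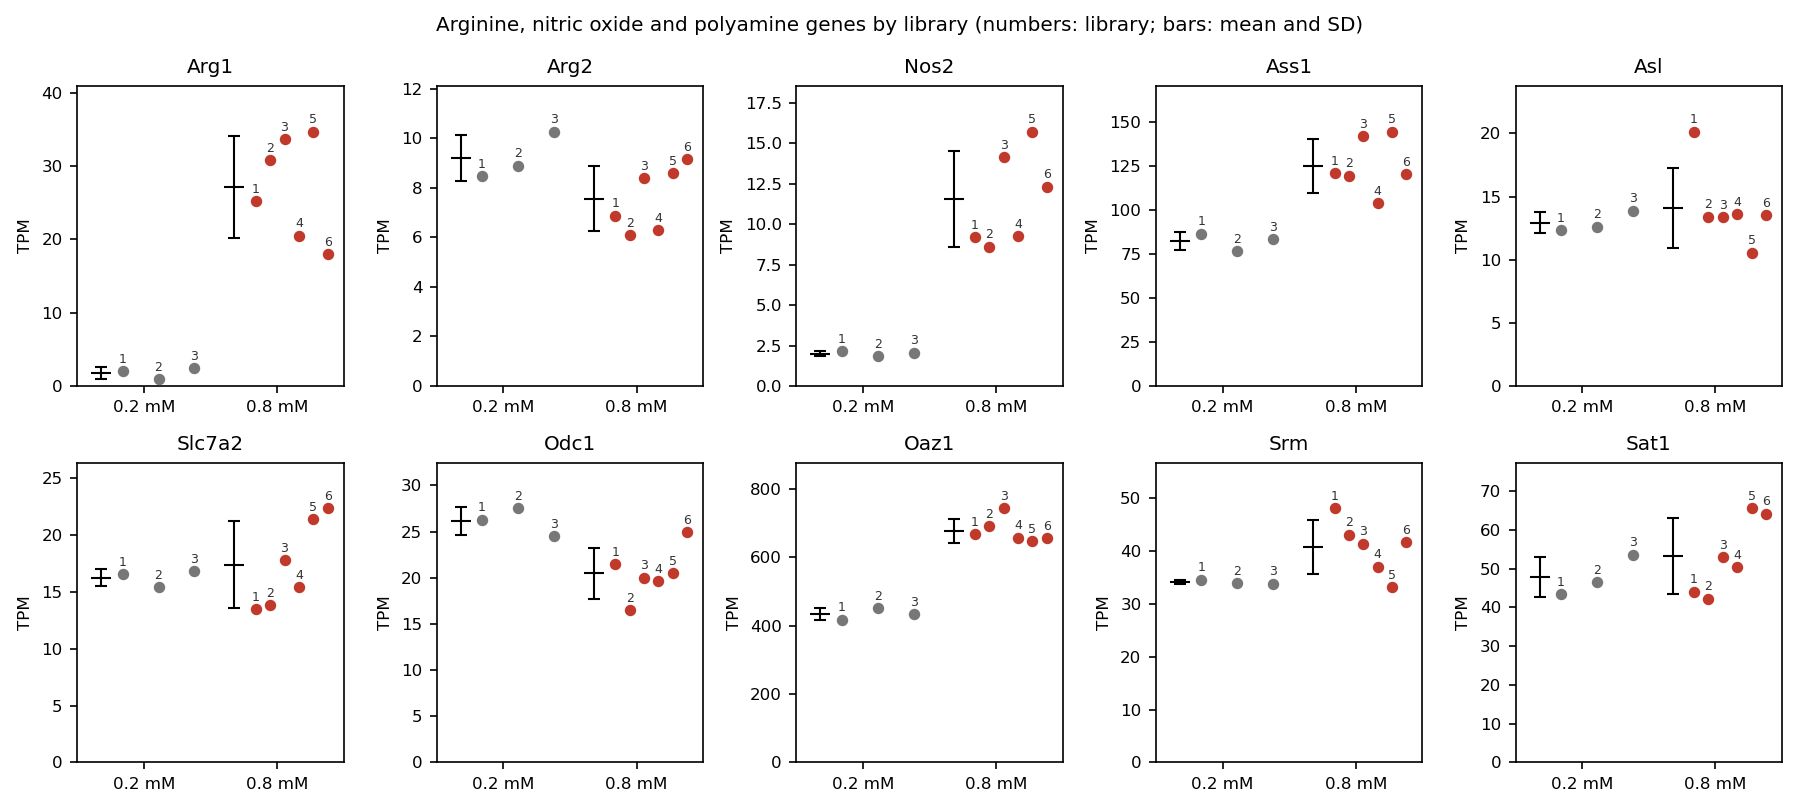
TPM of each member (vertical axis, linear, from 0) in the 3 libraries at 0.2 mM glycine (grey) and the 6 at 0.8 mM (red), numbered by library, with the mean and SD as bars. Arg1, Nos2, Ass1 and Oaz1 show no overlap between the groups, and in the other 6 panels the points overlap.

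Arg1, the cytosolic arginase, differed most. Its TPM were 1.99, 0.916 and 2.38 in libraries 1 to 3 at 0.2 mM, and at 0.8 mM the lowest was 18.0, the median 28.0 and the highest 34.7. Every library at 0.8 mM was thus far above every library at 0.2 mM, with libraries 3 and 5 the highest and 4 and 6 the lowest. The mean went from 1.76 ± 0.757 to 27.2 ± 7.01 TPM (SD, n = 3 and 6), a 15.4-fold ratio of means, and the log2 difference was 3.35 ± 0.24 (SE). With a pseudocount of 0.1 in place of 1 it was 3.93. In RNA from a whole culture, fewer cells of a type and less RNA per cell cannot be told apart. Arg1 (ENSMUSG00000019987.9) lies on chromosome 10 from 24915221 to 24927484, minus strand, in 7 exon blocks.

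Arg2, the mitochondrial arginase, did not follow it. The libraries at 0.2 mM had 8.48, 8.90 and 10.3 TPM, and those at 0.8 mM ran from 6.08 through a median of 7.64 to 9.17. The groups overlapped, with libraries 3, 5 and 6 at 0.8 mM within or near the range at 0.2 mM and libraries 1, 2 and 4 below it. The log2 difference was -0.26 ± 0.14 (SE). Arg2 (chromosome 12, 79130777 to 79156301, plus strand) shares 285 exon bases, or 19.96% of its exon length, with Vti1b on the opposite strand, whose mean was 25.2 TPM. Whether the counting used strand was not given in the sources used here, so part of the Arg2 value may be reads of Vti1b.

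The make-up of the arginase transcripts differed accordingly. Arg1 held 19.0%, 9.34% and 18.8% of the summed Arg1 and Arg2 TPM in the 0.2 mM libraries. At 0.8 mM it held between 66.2% and 83.5%, with a median of 79.3%. By these values, in which Arg2 may hold reads of Vti1b, Arg2 was the main arginase transcript in each 0.2 mM library and Arg1 in each 0.8 mM library. Summed arginase went from 10.98 ± 1.48 to 34.7 ± 7.21 TPM.

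Nos2, which makes nitric oxide in large amounts once induced, was also apart. Its TPM were 2.14, 1.82 and 2.05 at 0.2 mM, against a lowest of 8.61, a median of 10.8 and a highest of 15.7 at 0.8 mM. The 3 libraries at 0.2 mM lay close together, while at 0.8 mM libraries 3, 5 and 6 stood above libraries 1, 2 and 4. The mean went from 2.00 ± 0.163 to 11.5 ± 2.97 TPM, a 5.76-fold ratio of means and a log2 difference of 2.03 ± 0.19 (SE). Nos2 (chromosome 11, 78920787 to 78960254, plus strand) was the only nitric oxide synthase above 1 TPM in these libraries. Nos1, the main synthase of muscle fibres, had 0.0039 ± 0.0067 TPM at 0.2 mM and was listed at 0 at 0.8 mM. Nos3, the synthase of endothelium, had 0.133 ± 0.0598 and 0.453 ± 0.131 TPM. Both stayed under the filter and were not tested.

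Arg1 and Nos2 use the same substrate, and the ratio between them was lower at 0.8 mM. Nos2 TPM divided by Arg1 TPM was 1.08, 1.99 and 0.862 at 0.2 mM and between 0.279 and 0.686 at 0.8 mM, with a median of 0.435. Each library at 0.8 mM was below each library at 0.2 mM, and library 6 was the highest of the 0.8 mM group. Set against both arginases together, the order was the opposite: Nos2 made up 15.5 ± 1.52% of the summed Nos2 and arginase TPM at 0.2 mM and 24.98 ± 4.15% at 0.8 mM, again without overlap. The direction of the balance therefore depends on whether Arg2 is counted. Since part of the Arg2 value may be reads of Vti1b, the share with Arg2 counted is uncertain.

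Of the citrulline recycling pair, Ass1, which joins citrulline to aspartate, was higher at 0.8 mM and Asl, which releases arginine from the product, was not apart. Ass1 had 86.4, 76.6 and 83.3 TPM at 0.2 mM, against a lowest of 103.8, a median of 120.5 and a highest of 144.2 at 0.8 mM. The groups did not overlap, with library 4 the nearest to them and libraries 3 and 5 the farthest. The mean went from 82.1 ± 5.01 to 125.0 ± 15.3 TPM, a log2 difference of 0.59 ± 0.10 (SE). Ass1 lies on chromosome 2 from 31470207 to 31520672, plus strand.

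Asl had 12.3, 12.6 and 13.9 TPM at 0.2 mM, and from 10.6 through a median of 13.5 to 20.1 at 0.8 mM. Library 1 at 0.8 mM held that highest value alone, and library 5 was the lowest of all 9. The log2 difference was 0.09 ± 0.16 (SE) and its sign turned with quantile normalization (-0.0024) and without library 1 at 0.8 mM (-0.0090). Ass1 divided by Asl was 6.36 ± 0.558 at 0.2 mM and ran from 5.99 to 13.6 at 0.8 mM, so the groups overlapped through library 1. Asl lies on chromosome 5 from 130011258 to 130029247, minus strand.

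Slc7a2, a transporter of arginine, lysine and ornithine that is often induced together with Nos2, had means of 16.3 ± 0.767 and 17.4 ± 3.81 TPM. The libraries at 0.2 mM had 16.5, 15.4 and 16.9 TPM, and those at 0.8 mM ran from 13.5 through a median of 16.6 to 22.4. Libraries at 0.8 mM lay on both sides of the 0.2 mM group, 1 and 2 below and 3, 5 and 6 above. The log2 difference was 0.07 ± 0.16 (SE), and both median-ratio scaling and quantile normalization turned it to -0.02. Without library 6 at 0.8 mM it was -0.0076. Slc7a2 (chromosome 8, 40862396 to 40922308, plus strand) shares 6.95% of its exon bases with the noncoding gene Gm26584 on the opposite strand, which reached at most 1.12 TPM.

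Among the polyamine genes, Odc1, the rate-limiting enzyme of polyamine synthesis, had a lower mean at 0.8 mM. It had 26.3, 27.5 and 24.5 TPM at 0.2 mM, and from 16.5 through a median of 20.3 to 24.9 at 0.8 mM. The groups touched only where library 6 at 0.8 mM passed library 3 at 0.2 mM. The mean went from 26.1 ± 1.51 to 20.5 ± 2.74 TPM, a log2 difference of -0.34 ± 0.11 (SE). Odc1 lies on chromosome 12 from 17544794 to 17551505, plus strand.

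Oaz1, the antizyme that binds Odc1 protein and sends it to the proteasome, was the most abundant member. Its TPM were 417.7, 450.4 and 433.8 at 0.2 mM, with a lowest of 647.3, a median of 661.9 and a highest of 743.5 at 0.8 mM. The groups were far apart for their spread, and library 3 was the highest at 0.8 mM. The mean went from 434.0 ± 16.3 to 677.0 ± 36.0 TPM, a 1.56-fold ratio of means and a log2 difference of 0.64 ± 0.05 (SE). Median-ratio scaling brought that difference to 0.55, and quantile normalization to 0.36. Oaz1 (chromosome 10, 80826656 to 80829290, plus strand) has a processed copy, Oaz1-ps, which reached at most 1.3 TPM.

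The levels of the antizyme and of its target thus stood in opposite directions. Oaz1 divided by Odc1 was 15.9, 16.4 and 17.7 at 0.2 mM, against a lowest of 26.3, a median of 32.6 and a highest of 42.0 at 0.8 mM. No library of one group reached the other, and library 6, with the highest Odc1, had the lowest ratio at 0.8 mM. These are transcript ratios and say nothing of the frameshift described above or of protein.

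**Figure D2:**
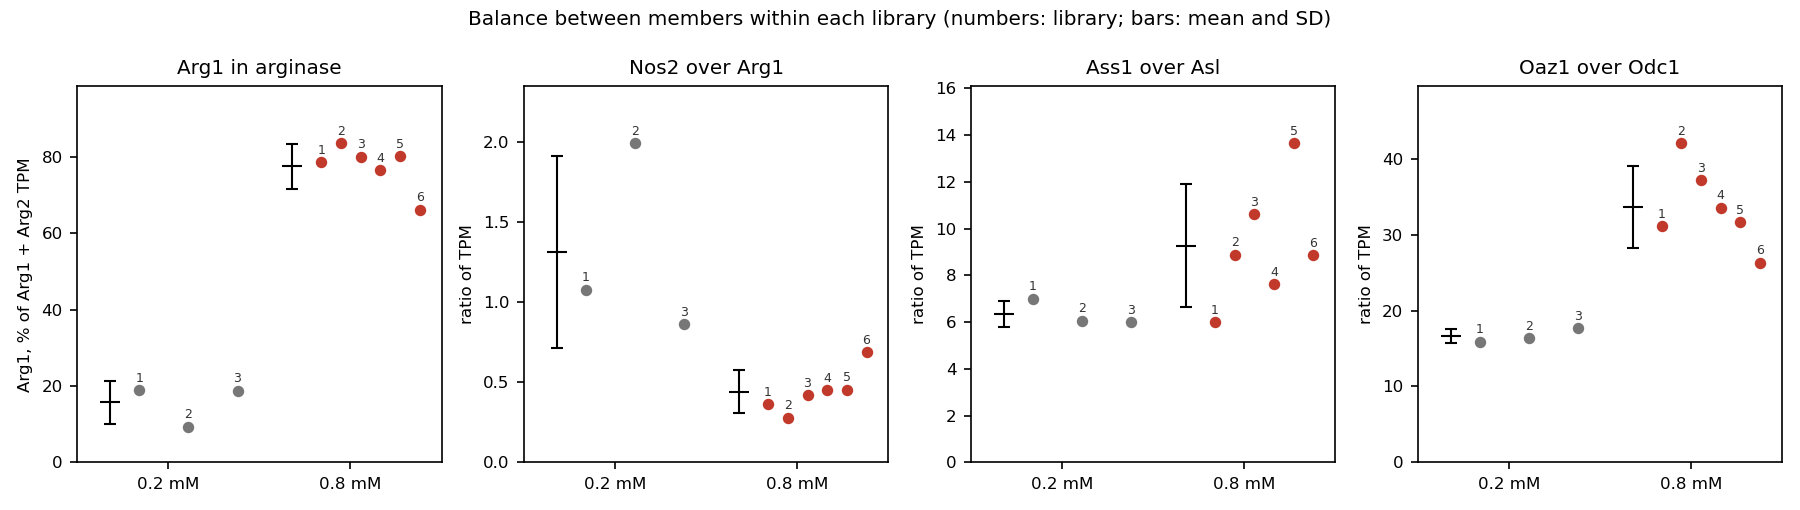
Balance between members in each library (numbered points) with the mean and SD as bars: Arg1 as a percent of arginase TPM, and the ratios Nos2 over Arg1, Ass1 over Asl and Oaz1 over Odc1 (linear axes from 0). The panels other than Ass1 over Asl separate the 0.2 mM (grey, n = 3) and 0.8 mM (red, n = 6) libraries. Ass1 over Asl ran from 5.99 to 13.6 at 0.8 mM and overlapped.

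Srm, which makes spermidine, was close to level at 0.2 mM and spread out at 0.8 mM. It had 34.6, 33.9 and 33.9 TPM at 0.2 mM, and from 33.2 through a median of 41.6 to 48.1 at 0.8 mM. Library 5 alone kept the groups from separating, and library 1 was the highest. The log2 difference was 0.24 ± 0.10 (SE), and the coefficient of variation was 1.24% at 0.2 mM against 12.6% at 0.8 mM. Srm lies on chromosome 4 from 148591503 to 148594993, plus strand.

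Sat1, which acetylates spermidine and spermine, overlapped widely. It had 43.4, 46.5 and 53.6 TPM at 0.2 mM, and from 42.3 through a median of 51.6 to 65.5 at 0.8 mM. Libraries 5 and 6 at 0.8 mM stood above all others, and library 2 lay under the lowest of 0.2 mM. The log2 difference was 0.14 ± 0.15 (SE). Sat1 TPM over Srm TPM was 1.40 ± 0.166 and 1.34 ± 0.389, with overlap. Sat1 lies on chromosome X from 155213132 to 155216449, minus strand.

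Ranked by TPM, which is per length, the order of the members at 0.2 mM was Oaz1, Ass1, Sat1, Srm, Odc1, Slc7a2, Asl, Arg2, Nos2 and Arg1. Each neighbour in that order was apart from the next over its 3 libraries except Nos2 and Arg1, whose ranges overlapped. At 0.8 mM the order was Oaz1, Ass1, Sat1, Srm, Arg1, Odc1, Slc7a2, Asl, Nos2 and Arg2. There the ranges were apart between Oaz1 and Ass1 and between Ass1 and Sat1, and overlapped between all other neighbours. Arg1 moved from the lowest place into the middle, and Arg2 took the lowest. The spread over libraries, as a coefficient of variation, was larger at 0.8 mM for every member but Arg1. The groups differ in size and no share over all genes was taken, so this is not read as a trait of the members. For Arg1 it was 43.0% at 0.2 mM, where the gene was near 2 TPM, and 25.8% at 0.8 mM.

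The spread at 0.8 mM was not the same for every member. Libraries 3, 5 and 6 were the 3 highest for Nos2, Slc7a2, Sat1 and Arg2, that is for 4 of the 10 members. Over all genes tested they were the 3 highest for 515 of 10049, or 5.12%, over the other pathway genes described further on for 3 of 38, and over the cell type markers tested for 5 of 49, or 10.2%. The pattern was picked out after the values were seen and is a description with no test. The other 6 members did not share it: library 2 was above 6 for Arg1, Srm and Asl were highest in library 1, and for Ass1, Odc1 and Oaz1 library 1 was among the 3 highest.

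The 5 markers with the same 3 highest libraries were Il6, Ptgs2, Ccl22, Dcn and Thy1, which come from different lists. Of the 8 classical activation markers tested only Il6 and Ptgs2 were among them, and Tnf, Il1b, Cxcl9, Cxcl10, Irf1 and Cd38 were not. Il6, an inflammatory cytokine gene, had 860.2, 1062 and 767.1 TPM in libraries 3, 5 and 6, and 427.6, 441.6 and 423.5 TPM in libraries 1, 2 and 4. Ptgs2, which encodes an inducible prostaglandin synthase, had 32.2, 31.4 and 29.0 TPM against 16.1, 16.6 and 17.7 TPM. Dcn, a matrix proteoglycan gene of fibroblasts, had 1865, 1916 and 1833 TPM against 1412, 1534 and 1572 TPM. Across the markers the pattern thus followed no 1 list. On the first principal component of the 0.8 mM libraries, which held 30.5% of the variance of 4527 genes, libraries 3, 5 and 6 scored 0.377, 0.345 and 0.351. Libraries 1 and 2 scored -0.544 and -0.565, and library 4 lay between these scores at 0.0369. The part of this split in the members' values was not tested, and the labels give nothing that divides the 6 libraries.

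**Figure D3:**
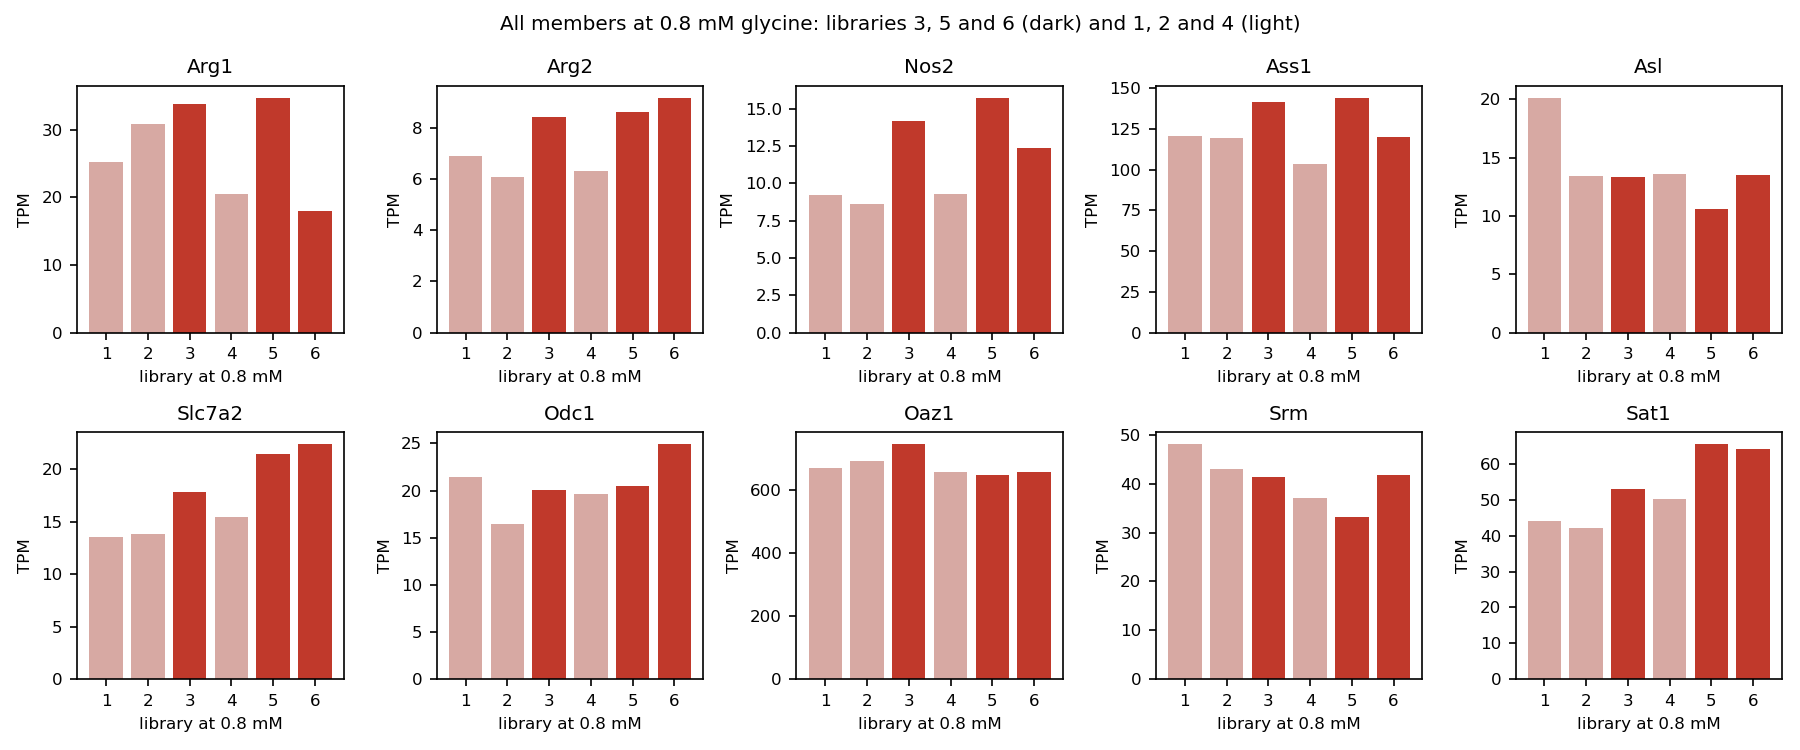
TPM in the 6 libraries at 0.8 mM glycine (horizontal axis: library number, bars from 0) for all 10 members, with libraries 3, 5 and 6 in dark red. The dark bars are the 3 highest for Arg2, Nos2, Slc7a2 and Sat1 and not for the other 6 members.

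Arg1 and Nos2 are also genes of activated macrophages, so the cells' identity was checked with marker lists. The myoblast and muscle genes were present: Myod1 had 35.7 ± 4.55 and 69.3 ± 5.70 TPM and Myog 247.4 ± 16.9 and 523.2 ± 41.2 TPM. The summed TPM of the 8 muscle markers lay between 492.2 and 574.7 at 0.2 mM and between 1126 and 1373 at 0.8 mM, with 7 of 8 past the test upward. Genes of other cell types were present in every library too. The 9 fibroblast markers summed to 2253 to 2631 TPM at 0.2 mM and 2630 to 3199 at 0.8 mM, with 6 upward and 0 downward. Most of that sum was Dcn, which did not pass, with 1878 ± 184 and 1689 ± 209 TPM. Pi16, among the 6, was under 1 TPM in every 0.2 mM library and was tested only through 0.8 mM. The 7 endothelial markers summed to 11.6 to 12.4 and 20.6 to 30.4 TPM, with 4 upward and Kdr, Tek and Tie1 under 1 TPM everywhere. Of those 4, Pecam1 and Cdh5 were likewise under 1 TPM in every 0.2 mM library and tested only through 0.8 mM. The 7 neutrophil markers summed to 433.6 to 544.0 and 901.4 to 2000 TPM, with 2 upward. Most of that sum was S100a8, which rose from 398.7 ± 37.5 to 1296 ± 462 TPM. S100a9 did not pass, with 103.7 ± 28.6 and 97.4 ± 19.5 TPM. Csf3r was under the filter, Ly6g was at 0, and Cxcr2 and Retnlg were under 1 TPM everywhere.

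The 16 macrophage markers summed to between 1892 and 2068 TPM at 0.2 mM and between 2078 and 2542 at 0.8 mM. Of them 4 rose, 1 fell, 9 did not pass and 2, Cd163 and Mrc1, were under 1 TPM everywhere. Most of that sum was Fcer1g and Lyz2. Itgam, among the 4 that rose, was under 1 TPM in every 0.2 mM library and was tested only through 0.8 mM. Fcer1g, a signalling subunit of myeloid receptors, had 949.0 ± 39.2 and 888.4 ± 36.3 TPM, and Lyz2, the lysozyme of myeloid cells, rose from 588.3 ± 30.6 to 1013 ± 153. The receptor Csf1r had 5.73 ± 0.558 and 5.18 ± 0.600 TPM, and Cd68 fell from 182.0 ± 13.6 to 57.6 ± 2.38 TPM.

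The markers of classical and of alternative activation, the states in which macrophages are known for Nos2 and for Arg1, stood at very different levels. The 10 classical markers summed to 1577 to 1642 TPM at 0.2 mM and 1772 to 2589 at 0.8 mM: Il1b rose, Tnf, Cxcl9, Cxcl10 and Irf1 fell, 3 did not pass and 2 were under the filter, among them Il12b at under 1 TPM everywhere. Most of that sum was Il1b, Il6 and Cxcl10. Cd86, also under the filter, had 1.02 ± 0.0958 and 0.483 ± 0.253 TPM and, like Il12b, was lower in every 0.8 mM library. Il1b rose from 450.7 ± 30.1 to 1021 ± 123 TPM. Cxcl10 fell from 592.0 ± 101 to 314.4 ± 39.2 TPM and Tnf from 98.5 ± 21.9 to 36.1 ± 9.07 TPM. Il6 did not pass (limma adjusted p = 0.0552), with 341.7 ± 61.1 and 663.7 ± 272 TPM, but was higher in every 0.8 mM library. The 10 alternative markers summed to only 8.09 to 10.1 TPM at 0.2 mM and 5.90 to 8.28 at 0.8 mM. Of these 0 rose, 1, Chil3, fell, 3 did not pass, and 6 were under the filter, with Clec10a at 0 and Mrc1, Cd163 and Pdcd1lg2 under 1 TPM everywhere. Mrc1 and Cd163 stand in both this list and the macrophage list. Arg1 itself thus stood at 27.2 TPM in libraries where all 10 alternative markers together reached at most 8.28 TPM. The part of any of these cell types in the levels of Arg1 and Nos2 was not tested.

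**Figure D4:**
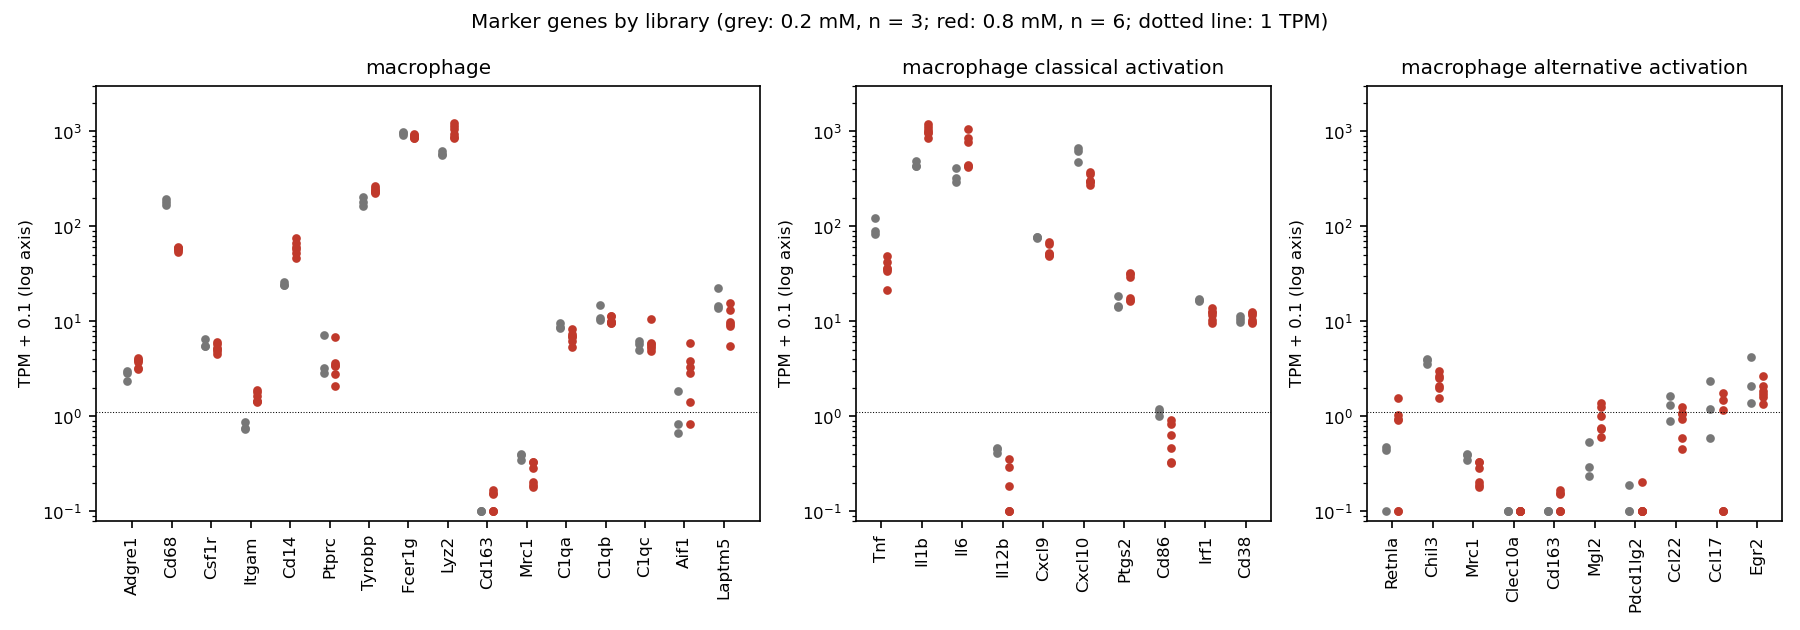
TPM + 0.1 (log axis) of the macrophage, classical activation and alternative activation markers in each library, 0.2 mM in grey (n = 3) and 0.8 mM in red (n = 6), with 1 TPM as a dotted line. Of the alternative markers, Chil3 (1.47 to 3.96 TPM) and Egr2 (1.25 to 4.07 TPM) lie above the line in every library. The others lie around or under it. Fcer1g, Lyz2, Il1b, Il6 and Cxcl10 are the highest of all markers shown.

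The other genes of the pathway, 58 in 5 lists, were not among the members picked by the rule and were tested in the same fit. These lists were drawn up with earlier results of these data known. Nothing is therefore read from their counts set beside the share over all genes. Of the 38 that passed the filter, 10 rose, 9 fell and 19 did not pass, beside 26.6% of all genes that passed. Their median log2 difference was 0.08 against 0.06 for all genes tested. Those named below passed with a mean of 5 TPM or more, or were named whatever their result, unless said otherwise.

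Of 11 genes of arginine transport and the urea cycle, 5 were tested, 0 rose, 3 fell and 2 did not pass. Slc3a2, the heavy chain that carries several amino acid transporters to the cell surface, fell from 188.1 ± 13.4 to 74.4 ± 3.32 TPM, by 1.33 ± 0.06 (SE, limma adjusted p = 1.37e-07). Slc7a1, the constitutive arginine transporter, fell from 4.83 ± 0.535 to 1.74 ± 0.565 TPM, by 1.11 ± 0.19 (SE, limma adjusted p = 0.00124). The third was Slc7a3, a further cationic amino acid transporter, named after its values were seen, from 1.84 ± 0.371 to 0.300 ± 0.185 TPM (limma adjusted p = 0.000397). Slc7a3 was under 1 TPM in every 0.8 mM library and was tested only through 0.2 mM, so nothing is read from its call. Slc7a2 was thus at 17.4 ± 3.81 TPM at 0.8 mM beside Slc7a1 at 1.74. Cps1 and Otc, which start the urea cycle in liver, were listed at 0 in all 9 libraries.

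Of 17 genes of nitric oxide synthesis, its cofactor tetrahydrobiopterin and cGMP signalling, 9 were tested, 5 rose, 2 fell and 2 did not pass. Gch1, which makes the first step of the cofactor that Nos2 needs, fell from 27.8 ± 1.05 to 15.5 ± 1.02 TPM, by 0.80 ± 0.08 (SE, limma adjusted p = 2.79e-05). Gchfr, which encodes the protein that feeds back on Gch1 and was named after its values were seen, rose from 0.344 ± 0.367 to 2.55 ± 1.05 TPM (limma adjusted p = 0.0033). It was under 1 TPM in every 0.2 mM library and was tested only through 0.8 mM, so nothing is read from its call. Nos2 at 0.8 mM was therefore higher beside a lower Gch1. Ddah2, which degrades methylarginines that inhibit nitric oxide synthases, rose from 10.5 ± 0.817 to 23.7 ± 2.21 TPM, by 1.11 ± 0.10 (SE, limma adjusted p = 1.1e-05). Its relative Ddah1 rose from 2.26 ± 0.357 to 3.61 ± 0.297 TPM (limma adjusted p = 0.0095, and 0.0502 without library 1 at 0.2 mM).

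Both genes that recycle the cofactor rose, each with a call that leaving out a library could end. Pcbd1 rose from 2.84 ± 1.14 to 8.68 ± 3.63 TPM (limma adjusted p = 0.0102, and 0.0544 without library 3 at 0.2 mM). Qdpr rose from 7.01 ± 1.41 to 9.27 ± 0.681 TPM (limma adjusted p = 0.0417), a call that was lost without any 1 of 7 libraries (libraries 2 and 3 at 0.2 mM and 1, 2, 3, 5 and 6 at 0.8 mM), up to 0.173 without library 3 at 0.2 mM. It was also lost with median-ratio scaling (0.0933), quantile normalization (0.114), no filter (0.0727) and without mitochondrial and ribosomal RNA (0.0727). Nosip, whose protein binds nitric oxide synthases, fell from 15.8 ± 0.479 to 11.1 ± 1.74 TPM (limma adjusted p = 0.0145, and 0.0508 and 0.0523 without library 1 or 3 at 0.2 mM).

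Of 13 genes listed under other arginine and ornithine use, 11 were tested, 2 rose, 3 fell and 6 did not pass. The list includes Azin2, an antizyme inhibitor gene described with the polyamine genes below. Gatm, which moves the amidino group of arginine onto glycine in the first step of creatine synthesis, rose from 8.83 ± 0.873 to 19.0 ± 1.96 TPM, by 1.02 ± 0.11 (SE, limma adjusted p = 4.65e-05). It is the gene of this set whose enzyme takes both arginine and glycine. Oat, which turns ornithine toward proline and glutamate, rose from 10.7 ± 1.17 to 18.3 ± 2.44 TPM, by 0.72 ± 0.12 (SE, limma adjusted p = 0.00109). The 3 that fell, named after their values were seen, were Aldh18a1, which works on the path from glutamate to proline and ornithine, and the arginine methyltransferases Prmt3 and Prmt7, with limma adjusted p of 0.0373, 0.0216 and 0.0224. Each lost its call without at least 1 library, Aldh18a1 up to 0.144 and Prmt3 up to 0.114 without library 1 at 0.2 mM, and Prmt7 up to 0.0957 without library 3 at 0.2 mM. Aldh18a1 lost it for 7 of the 9 libraries, all but 3 and 4 at 0.8 mM, Prmt3 for that 1 library, and Prmt7 also for library 2 at 0.2 mM.

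Of 13 further polyamine genes, 10 were tested, 2 rose, 0 fell and 8 did not pass. Sms, which makes spermine from spermidine, rose from 4.95 ± 0.736 to 7.73 ± 1.39 TPM (limma adjusted p = 0.01995, and 0.0901 and 0.0633 without library 2 or 3 at 0.2 mM). Sat2, a relative of Sat1 named after its values were seen, rose from 0.310 ± 0.277 to 1.76 ± 0.928 TPM (limma adjusted p = 0.0104, and 0.0563 without library 1 at 0.2 mM). Sat2 was under 1 TPM in every 0.2 mM library and was tested only through 0.8 mM, so nothing is read from its call. Amd1, which supplies the aminopropyl donor that Srm uses, had 2.14 ± 0.311 and 2.77 ± 0.807 TPM (limma adjusted p = 0.35). Smox, the spermine oxidase, had 3.02 ± 0.327 and 3.39 ± 0.506 TPM (limma adjusted p = 0.553). Azin1, which frees Odc1 from antizyme, had 3.36 ± 0.308 and 3.57 ± 0.467 TPM (limma adjusted p = 0.758). Its relative Azin2, named after its values were seen, had 3.16 ± 0.843 and 4.74 ± 0.821 TPM. Azin2 did not pass (limma adjusted p = 0.0578) but was higher in every 0.8 mM library. Oaz2, the antizyme most like Oaz1 in its wide expression and named after its values were seen, had 10.7 ± 0.535 and 10.3 ± 0.530 TPM (limma adjusted p = 0.669), while Oaz3, named likewise, was listed at 0 everywhere.

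Of 4 hypusine genes 3 were tested, and Eif5a rose, Dhps fell and Dohh did not pass. Eif5a, the factor that carries hypusine, rose from 299.6 ± 8.02 to 404.5 ± 29.4 TPM, by 0.43 ± 0.06 (SE, limma adjusted p = 0.000447), and did not pass with quantile normalization (0.17, adjusted p = 0.0719). Dhps, which builds hypusine from spermidine, fell from 18.4 ± 3.88 to 11.6 ± 2.41 TPM (limma adjusted p = 0.0209, 0.108 without library 2 at 0.2 mM and 0.0562 with no filter). Transcripts of the factor and of its modifying enzyme thus moved in opposite directions, the latter resting on library 2 at 0.2 mM.

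**Figure D5:**
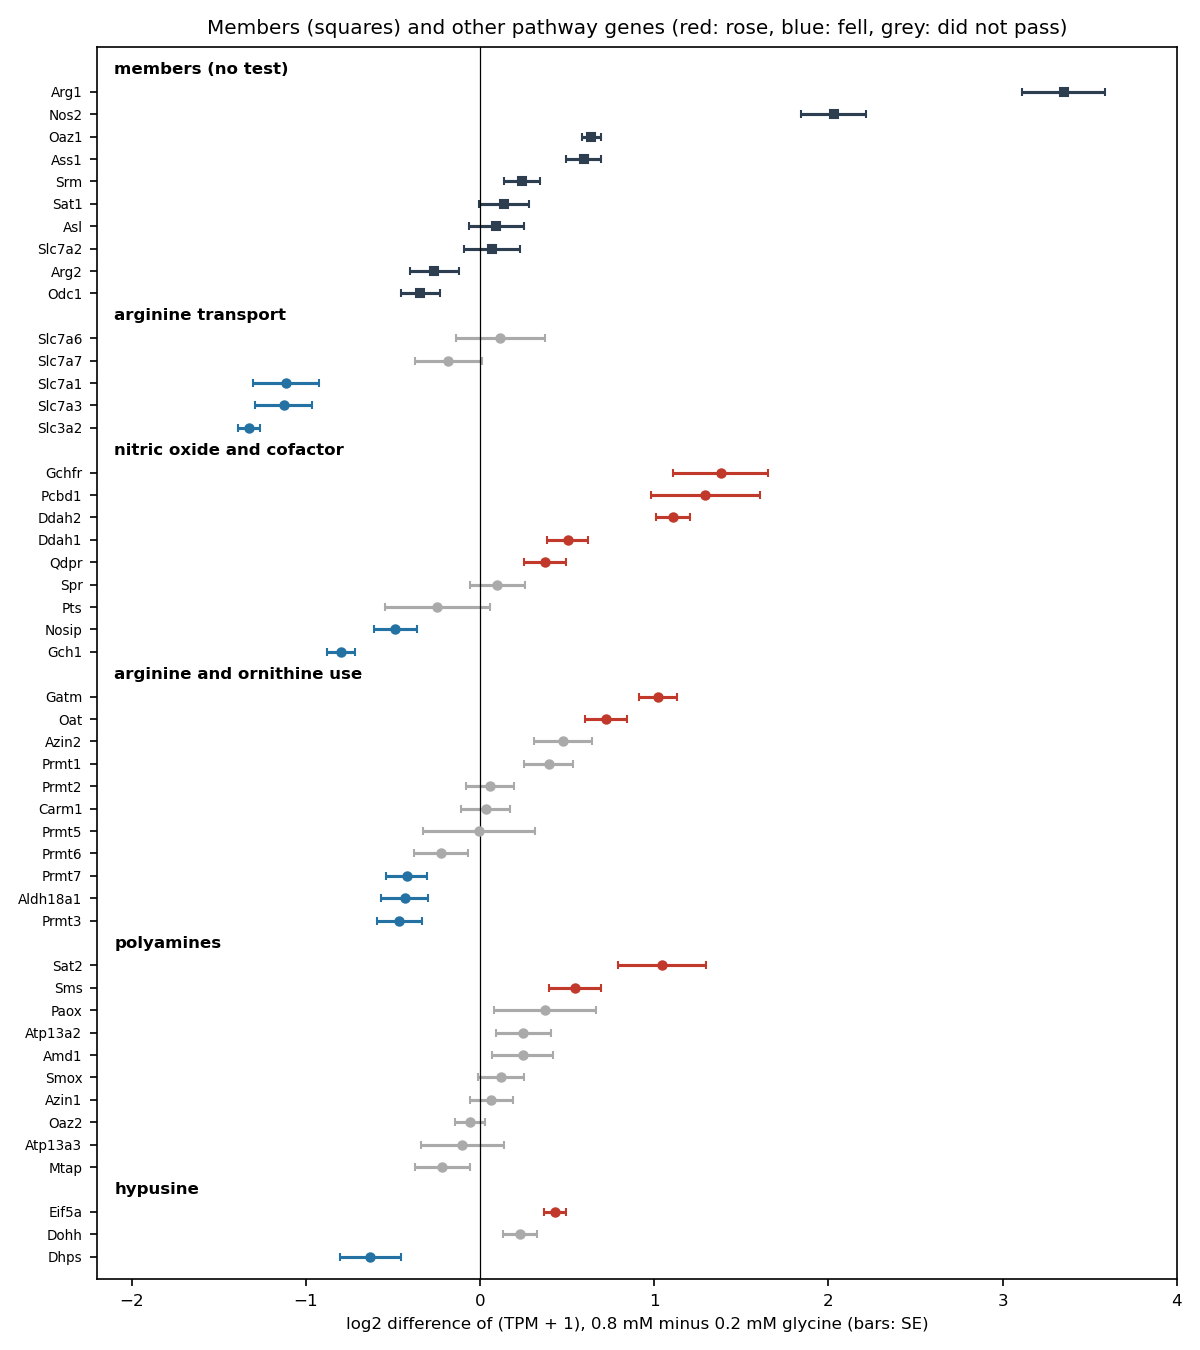
Log2 difference of (TPM + 1), 0.8 mM minus 0.2 mM glycine, with SE bars, for the 10 members (dark squares, no test) and the 38 tested pathway genes by list (red rose, blue fell, grey did not pass at limma adjusted p under 0.05). Arg1 at 3.35 and Nos2 at 2.03 lie farthest right and Slc3a2 at -1.33 farthest left.

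Genes whose profile over the 9 libraries was most like that of Arg1 or Nos2 were found by the root mean square difference of log2(TPM + 1), each centred on its 0.2 mM mean, over 4375 genes with a symbol and a mean of at least 5 TPM. For Arg1 they were Gal, the galanin gene, at 0.39, Scd2, a fatty acid desaturase gene, at 0.39, and Idi1 of sterol synthesis at 0.40. Their mean TPM went from 31.1 to 283.8, from 1.28 to 17.4 and from 0.307 to 9.66. For Nos2 they included Penk, the proenkephalin gene, at 0.24, and Itgb1bp2, the melusin gene of striated muscle, at 0.28. Their mean TPM went from 10.0 to 44.99 and from 6.15 to 27.5. None of the genes named here is in the pathway or marker lists. The distance includes the difference between the glycine levels, on which Arg1 and Nos2 were selected, so a like size of that difference weighs in it. Scd2 and Idi1 reached the mean of 5 TPM only through the 0.8 mM libraries.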

How the data were processed

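RNA of 9 libraries of primary mdx myoblasts, 3 at 0.2 mM and 6 at 0.8 mM glycine, was extracted with Trizol and prepared with a TruSeq kit, per the labels' protocols. The authors deposited TPM per gene in 1 table, made with HISAT2 2.0.5, StringTie 1.3.3 and DESeq2 on mm10 per the submitters' processing notes. Order, settings, annotation and strandedness of these steps were not given in the sources used here. Each library summed to 999999.5 to 1000000.4 TPM, no 2 libraries were identical, and 8 of 8 genes in general use were above 0 in every library.

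The fit was limma 3.58.1 in R 4.3.3 (lmFit, then eBayes with a trend, two-sided) of log2(TPM + 1) over all 9 libraries, with no covariate and Benjamini-Hochberg adjustment over 10049 genes with at least 1 TPM in at least 3 libraries. Members were matched by symbol, and all 10 IDs matched GENCODE M21 (GRCm38) with version. The members, the pathway and marker lists and the rule for named genes were chosen with earlier results of these data known. The rule named all members, pathway genes that passed with a mean of at least 5 TPM, and 16 pathway genes whatever their result. For each member with a difference of at least 1, it also named the 3 genes of most similar profile, of which 1 is not reported here. Alternatives were pseudocounts of 0.1 and 0.5, no filter, a filter at a mean of 5 TPM, median-ratio and quantile scaling, TPM without mitochondrial and ribosomal RNA, eBayes without a trend, each library left out, and the library number as a block. The fit was tested on simulated data. Plots used matplotlib 3.10.9 (Python 3.11.15).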

Additional observations from a re-analysis of the deposited data

Results flagged for a closer look

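At 0.8 mM glycine, 4 of 26 genes examined (the members and the named pathway genes) had 1 library far from the other 5, with a gap to its nearest neighbour that, as a share of the group's range, was above Dixon's 95% critical value for 6 samples. Chance flags about 1 in 20 such groups. Asl had 20.1 TPM in library 1, against 10.6 to 13.6 in the others. Gch1 had 17.6 TPM in library 6, against 14.7 to 15.4. Gatm had 15.2 TPM in library 5, against 19.0 to 20.7. Amd1 had 4.34 TPM in library 6, against 2.13 to 2.86. Without library 6 the fall of Gch1, and without library 5 the rise of Gatm, still passed, since no left-out library ended either call (highest limma adjusted p 0.000316 and 0.000431, both without library 2 at 0.2 mM).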

How the results depend on the processing

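No member with groups that did not overlap changed direction under any alternative run. With each library left out, Arg1 ranged from 3.11 to 3.52, Nos2 from 1.94 to 2.10, Ass1 from 0.55 to 0.65 and Oaz1 from 0.61 to 0.67. The members without overlap numbered 4, and 5 with median-ratio scaling and without mitochondrial and ribosomal RNA. The number was also 5 without library 3 at 0.2 mM or library 5 or 6 at 0.8 mM. This count was taken on TPM outside the fit, so the pseudocounts, the filters, the trend and the block could not change it. Quantile normalization was not applied to it. The share over all genes without overlap was taken only for the 9 libraries as deposited, so nothing is read from these changes in the count. Pathway genes that fell numbered 9, but 4 with the filter at a mean of 5 TPM, which leaves 5 of them untested. They ranged from 5 to 9 with 1 library left out, and those that rose from 8 to 10. With the library number as a replicate block over libraries 1 to 3 of each group, 5 pathway genes rose and 5 fell, 625 of all genes fell, and 7 members did not overlap. The same 6 libraries without the block gave 5 pathway genes that fell and 7 members, so fewer samples alone gave those 2 counts. Groups of 3 and 3 libraries separate more easily than groups of 3 and 6, and no share over all genes was taken there. Deviations of libraries with the same number correlated across genes at 0.038, 0.002 and 0.107, so the number is not taken to pair them, and not every library correlated best with its own. The sign turned for Slc7a2 (-0.12) and Sat1 (-0.044) over these 6 libraries, neither apart between the groups. TPM hold no depth, so no limit of detection is given.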
